A study of Caenorhabditis elegans with 52 samples.

Results

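piRNA levels in adult Caenorhabditis elegans carrying both pup-1(how50) and disl-2(tm5337) were compared with those in animals carrying disl-2(tm5337) alone, so that the 2 groups differ in pup-1 while both lack DISL-2. Each group had 2 libraries, which makes 4 of the 42 libraries in the piRNA table and 4 of the 52 samples of the series. They were chosen by the genotypes in their names, and all 14581 piRNAs of the steady-state part of the table were considered. The other groups used here, also of 2 libraries, were the isogenic disl-2 control, disl-2(how27), the pup-1 paired control, pup-1(tm1021) and pup-1(how20); disl-2(how27). All 7 groups were untreated whole animals collected as day 1 adults with eggs. The labels place disl-2 and pup-1 both on chromosome III, and give no genotype for the 2 control groups beyond their names. The allele pup-1(how50) occurs in no other group, so it cannot be told apart from the rest of that strain.

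piRNAs are small RNAs of the germline that guide the Piwi protein PRG-1 to foreign and self transcripts. In this species each is transcribed from its own small unit, most of them in clusters on chromosome IV, and the precursors are trimmed and 2′-O-methylated at the 3′ end. PUP-1, also called CDE-1, is a poly(U) polymerase that adds uridines to RNA 3′ ends. DISL-2 is the homolog of DIS3L2, an exonuclease that in human cells and fission yeast degrades RNAs bearing such tails. The pair therefore addresses whether losing the uridylating enzyme still alters piRNA levels when this exonuclease is already missing.

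The 2 groups were treated here as parts of separate sub-experiments, each with a control of its own, so in a direct comparison genotype and sub-experiment cannot be told apart. The labels name a pup-1 paired control but do not say that it is the control of the pup-1; disl-2 double mutants. That pairing is an assumption, and every control-adjusted value below rests on it, except where that control cancels out. Depth was between 19002714 and 33032562 reads in the 4 libraries and between 17928105 and 52798564 in the 14. The table gives levels as RPM, the reads of a piRNA scaled to the depth of its library, and a level of 0 allows up to 3 reads, which is 0.0908 to 0.158 RPM in the 4 libraries, by counting error only. The transcripts of pup-1 and disl-2 are not part of this table, so the genotypes were not checked in the libraries.

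Over the 5369 piRNAs whose mean reached 1 RPM in these 14 libraries, the libraries did not group by sub-experiment. On the log2 scale, Pearson's r was 0.978 between the disl-2(tm5337) replicates and 0.977 between the pup-1(how50); disl-2(tm5337) replicates. Between these 2 groups it was 0.876 to 0.892. The pup-1(how50); disl-2(tm5337) libraries lay closest to pup-1(how20); disl-2(how27), with r from 0.951 to 0.974. Against disl-2(how27) r was 0.917 to 0.950 and against the disl-2 control 0.929 to 0.949, ranges that overlap. Against the pup-1 paired control, taken here as their control, r was 0.819 to 0.835, which leaves that assignment in doubt. The disl-2(tm5337) libraries lay closest to pup-1(tm1021), with r from 0.896 to 0.932, and at 0.868 to 0.886 from the disl-2 control. These values describe levels across piRNAs, which share libraries and are not independent replicates. The part that strain background, stage or handling has in them was not tested.

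The total piRNA level did not separate the groups. It was 68032 and 56978 RPM in the 2 disl-2(tm5337) libraries and 75567 and 60589 RPM in the 2 pup-1(how50); disl-2(tm5337) libraries. The groups overlapped, since the lower library of the double mutant lay below the higher library of disl-2(tm5337). The means were 62505 ± 7816 and 68078 ± 10591 RPM (SD, n = 2), a 1.09-fold ratio (log2 0.12 ± 0.20 SE). The two-sided exact permutation p was 0.667, where 2 libraries against 2 cannot give less than 0.333. The control of the pup-1 sub-experiment stood 1.11-fold above the disl-2 control, and after subtracting that difference the log2 ratio was -0.03 ± 0.21.

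Totals did not overlap in the study's other comparisons of animals with and without pup-1. pup-1(tm1021) stood at 46235 ± 6513 RPM against 87362 ± 1877 RPM in its paired control, a ratio of 0.529. pup-1(how20); disl-2(how27) stood at 65570 ± 1786 RPM against 103017 ± 8068 RPM in disl-2(how27), a ratio of 0.636. In both of these the exact permutation p of 0.333 was the smallest the design allows. In whole animals, fewer germ cells of a kind and less piRNA per cell cannot be told apart, which holds for every value given here.

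**Figure D1:**
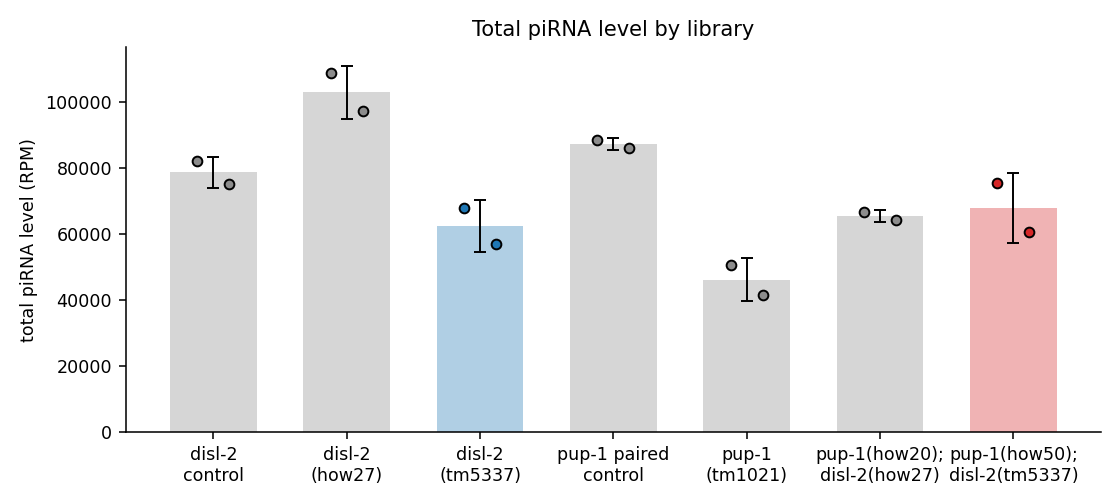
Total piRNA level in RPM (vertical axis, from 0) for the 7 groups; points are single libraries, bars the mean and lines the SD of 2 libraries. The disl-2(tm5337) and pup-1(how50); disl-2(tm5337) libraries overlap, between 56978 and 75567 RPM, while pup-1(tm1021) lies lowest at 46235 RPM.

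Single piRNAs moved in both directions. Of the 5369 piRNAs tested, 672 were higher in pup-1(how50); disl-2(tm5337), which is 12.5%, and 1026 were lower, 19.1%. A piRNA is called where limma's test on log2(RPM + 0.5) gave a Benjamini-Hochberg adjusted p under 0.05, so 31.6% were called in all. More than 2-fold changes made up 394 of the rises and 634 of the falls, and the median piRNA changed by -0.11 on the log2 scale. That median was not stable in sign. It ran from -0.31 without disl-2(tm5337) replicate 2 to 0.09 without disl-2(tm5337) replicate 1, and was 0.08 over piRNAs averaging 5 RPM or more. With the libraries rescaled to equal medians, which removes a shared shift of -0.17, 1181 rose and 954 fell. The balance between rises and falls therefore depended on whether levels were taken as RPM or relative to the median piRNA.

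The counts also moved with single libraries. Rises numbered 371 without disl-2(tm5337) replicate 2 and 356 without pup-1(how50); disl-2(tm5337) replicate 1. Falls numbered 362 without disl-2(tm5337) replicate 1 and 464 without pup-1(how50); disl-2(tm5337) replicate 2. No piRNA called in one direction was called in the other under any of these alternatives.

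The gap between the controls is given beside these counts, although the pup-1 paired control is only assumed to be that of the double mutant. The pup-1 paired control differed from the disl-2 control in 34.4% of the same piRNAs, 1334 higher (24.8%) and 511 lower (9.52%), with a median of 0.19. After rescaling, 1028 were higher and 1329 lower. Of the 1026 piRNAs that fell in the pair, 567 were higher and 11 lower in the pup-1 paired control, with a median of 0.86. Of the 672 that rose, 41 were higher and 185 lower, with a median of -0.33. The piRNAs that fell in the double mutant were thus often higher, and seldom lower, in the pup-1 paired control. The part of this gap in the counts of the pair cannot be told apart from that of the genotype.

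**Figure D2:**
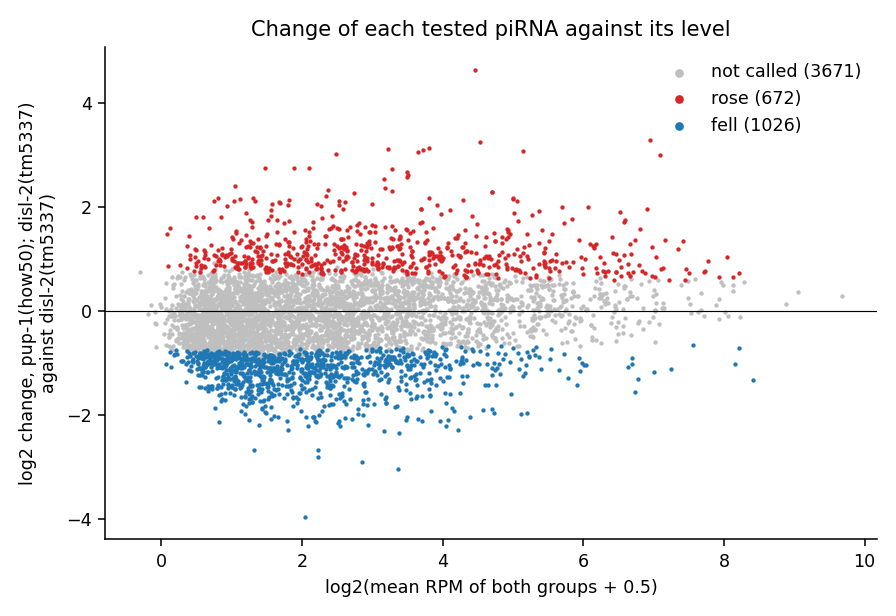
Log2 change in pup-1(how50); disl-2(tm5337) against disl-2(tm5337) (vertical axis) by log2 of the mean RPM of both groups plus 0.5 (horizontal axis), 1 point per tested piRNA. Red points rose (672), blue points fell (1026) and grey points were not called; the lowest point is 21ur-1627, listed at 0 in both double-mutant libraries.

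Set against controls, the 2 mutants departed from them to different extents. Against the disl-2 control, disl-2(tm5337) had 610 piRNAs higher (11.4%) and 1348 lower (25.1%), 36.5% in all, with a median of -0.21. The double mutant, set against the same control libraries, had 162 higher (3.02%) and 955 lower (17.8%), 20.8% in all, with a median of -0.34. Against the pup-1 paired control the double mutant had 552 higher (10.3%) and 2353 lower (43.8%), 54.1% in all, with a median of -0.55. The first 2 of these comparisons share the disl-2 control and the last 2 share the double mutant, so they are not independent.

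The 672 rising piRNAs had a median level of 4.48 RPM in disl-2(tm5337) and 10.6 RPM in pup-1(how50); disl-2(tm5337). In the other groups their median was 12.04 RPM in the disl-2 control, 8.73 RPM in the pup-1 paired control, 17.5 RPM in disl-2(how27), 10.8 RPM in pup-1(how20); disl-2(how27), and in pup-1(tm1021) 4.70 RPM. Among all 7 groups, disl-2(tm5337) and pup-1(tm1021) were the low ones for these piRNAs, and the double mutant lay within the range of the others. Over all tested piRNAs, pup-1(tm1021) was also the lowest group, with a median of 3.02 RPM, so its low value is not particular to the rising ones. The median over all tested was 3.79 RPM in disl-2(tm5337), 3.28 RPM in the double mutant and 4.23 RPM in the disl-2 control. The 1026 falling piRNAs had a median of 4.68 RPM in disl-2(tm5337) and 1.69 RPM in the double mutant. Here the pup-1 paired control was highest at 5.31 RPM, and pup-1(how20); disl-2(how27), at 1.61 RPM, was as low as the double mutant. The lists were chosen on the disl-2(tm5337) and double-mutant libraries, so their levels in those are a description only.

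The largest rises, among piRNAs averaging 5 RPM or more in the 4 libraries, were all encoded in cluster b, the larger piRNA cluster of chromosome IV, which lies toward the right arm. Cluster b held 83.5% of all tested piRNAs and 88.8% of all rises. 21ur-1956, which the authors class as Oogenic, stood at 1.30 and 1.06 RPM in disl-2(tm5337) and at 46.4 and 37.3 RPM in pup-1(how50); disl-2(tm5337). This was a log2 change of 4.65 ± 0.48 (SE, limma adjusted p = 4.0e-08). Its levels in the other groups were uneven, since pup-1(how20); disl-2(how27) held 7.35 and 63.6 RPM and pup-1(tm1021) held 0.561 and 0.386 RPM. It shares reads with at least 1 other locus, as do 7 of the 12 largest rises, so its level cannot be assigned to it alone. By class these 12 were 5 Oogenic, 3 Spermatogenic and 4 with none, where 19.1% of all tested piRNAs are Oogenic and 33.6% Spermatogenic. The Oogenic 21ur-14514 and 21ur-2827, which share reads, ran close together, at 25.4 and 24.0 RPM and 23.9 and 22.4 RPM in the double mutant. The Spermatogenic 21ur-6228 and 21ur-10508, described below, did so too. Such members may not be separate in the class counts, and whether they share reads with each other was not tested.

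21ur-6228, an abundant piRNA of the Spermatogenic class that also shares reads, went from 24.2 and 20.1 RPM to 257 and 190 RPM (log2 3.29 ± 0.24, limma adjusted p = 4.9e-11). 21ur-10508, of the same class and also sharing reads, went from 32.0 and 26.6 RPM to 276 and 206 RPM (log2 3.01 ± 0.24, limma adjusted p = 3.0e-10). Both exceeded the controls as well. 21ur-6228 held 132 and 102 RPM in the disl-2 control, and 281 and 266 RPM in pup-1(how20); disl-2(how27). 21ur-5876, the third of this class, which shares reads too, went from 4.57 and 3.20 RPM to 47.3 and 35.6 RPM. It stood at 44.4 and 45.5 RPM in the disl-2 control.

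Among rises that share no reads, 21ur-8605, classed as Oogenic, stood at 1.82 and 1.03 RPM in disl-2(tm5337) and at 19.4 and 13.1 RPM in the double mutant (log2 3.13 ± 0.30, limma adjusted p = 6.6e-09). The disl-2 control, at 23.4 and 15.1 RPM, overlapped the double mutant and not disl-2(tm5337). 21ur-1120 went from 2.36 and 1.97 RPM to 25.2 and 18.6 RPM (log2 3.06 ± 0.30, limma adjusted p = 1.2e-08), with 29.7 and 29.1 RPM in the disl-2 control. 21ur-1065 went from 0.848 and 0.606 RPM to 10.6 and 8.42 RPM (log2 3.03 ± 0.30, limma adjusted p = 1.5e-08). 21ur-35, which lies within the coding gene ssu-2, went from 1.64 and 2.52 RPM to 16.0 and 16.8 RPM, a log2 change of 2.74 ± 0.29. 21ur-5143 went from 2.39 and 2.64 RPM to 21.7 and 16.3 RPM, above both control groups, which held 9.73 to 13.0 RPM. For all 12 of the largest rises, disl-2(tm5337) lay below both controls, below disl-2(how27) and below pup-1(how20); disl-2(how27) with no overlap, as did 13.6% of all tested piRNAs. The double mutant lay above the disl-2 control in 5 of them (13.1% of all), overlapped it in 6 and lay below it in 1. The 12 were picked for low values in disl-2(tm5337), so these counts are a description.

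The 12 largest falls held 8 piRNAs of the Oogenic class, 4 with no class and 0 of the Spermatogenic class. Both the largest rises and the largest falls thus held more Oogenic members than the 19.1% of all tested piRNAs, and no test was made. The 2 lists were drawn from piRNAs averaging 5 RPM or more, while that share covers all tested. Of all rises 12.8% were Oogenic, and of all falls 27.2%, so the largest rises do not stand for the rises in this. 21ur-4894, classed as Oogenic, stood at 14.6 and 21.03 RPM in disl-2(tm5337) and at 2.44 and 1.16 RPM in the double mutant (log2 -3.03 ± 0.33, limma adjusted p = 8.3e-08). The disl-2 control held 2.54 and 2.29 RPM, so the high group was disl-2(tm5337). 21ur-5300 went from 11.9 and 12.5 RPM to 1.67 and 0.842 RPM (log2 -2.89 ± 0.37, limma adjusted p = 1.4e-06). It stood at 3.58 and 1.95 RPM in the disl-2 control and at 0.686 and 0.483 RPM in pup-1(tm1021).

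21ur-2376, another Oogenic piRNA, went from 35.1 and 25.8 RPM to 5.98 and 5.58 RPM (log2 -2.29 ± 0.31, limma adjusted p = 3.1e-06). Its 2 controls differed, at 8.98 and 7.36 RPM in the disl-2 control and 24.0 and 25.3 RPM in the pup-1 paired control. 21ur-2194, within the nuclear hormone receptor gene nhr-5, went from 24.8 and 25.0 RPM to 5.43 and 5.26 RPM (log2 -2.12 ± 0.35, limma adjusted p = 5.2e-05). 21ur-3204, within the glucuronosyltransferase gene ugt-22, went from 30.1 and 23.2 RPM to 6.62 and 4.32 RPM (log2 -2.20 ± 0.30, limma adjusted p = 3.3e-06). In this case disl-2(tm5337) lay only just above the disl-2 control, whose higher library held 21.6 RPM. Its pup-1 paired control was higher still, at 34.6 and 47.3 RPM.

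Of the 12 largest falls, disl-2(tm5337) lay above the disl-2 control without overlap in 12 (22.9% of all tested piRNAs), above pup-1(tm1021) in 12 (45.7%) and above the pup-1 paired control in 6 (16.8%). The double mutant overlapped pup-1(how20); disl-2(how27) in 12 (67.1%), and lay below the pup-1 paired control in 11 (57.8%). They were picked for high values in disl-2(tm5337), so these counts too are a description. The fall of 21ur-2400, from 12.9 and 15.8 RPM to 1.97 and 3.11 RPM, was lost when no filter on low levels was set, with a limma adjusted p of 0.066.

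**Figure D3:**
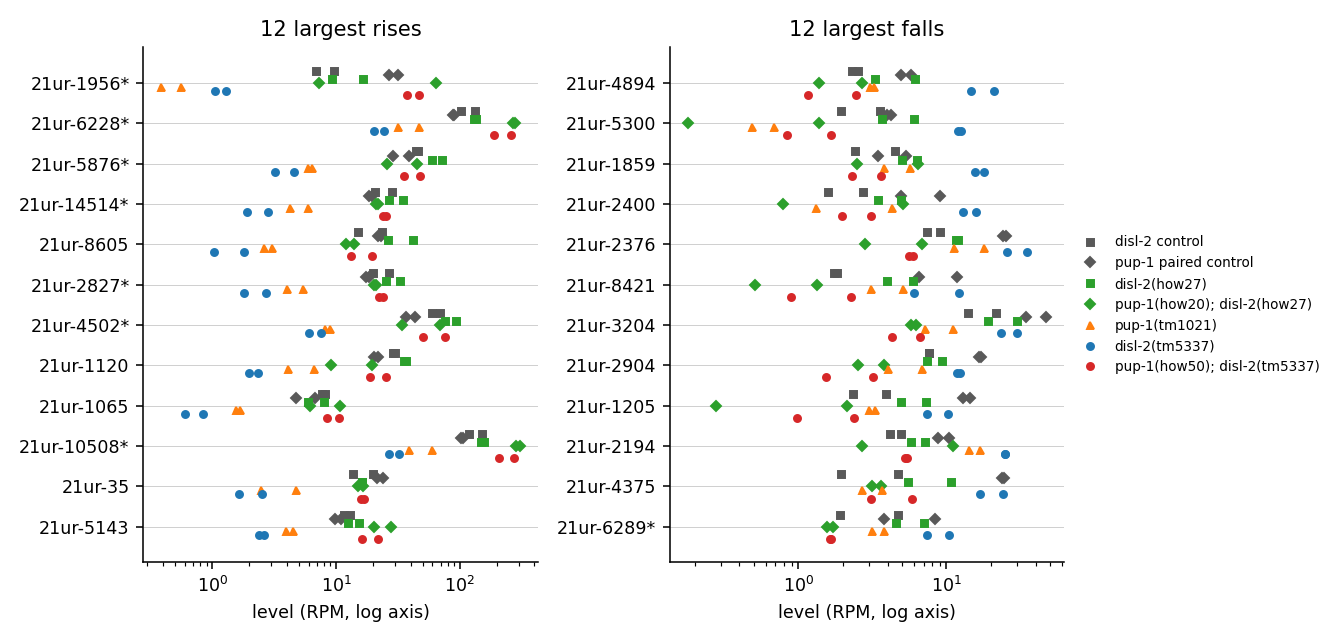
Level in RPM (horizontal log axis) of the 12 largest rises (left) and the 12 largest falls (right) in each of the 14 libraries, 2 points per group; an asterisk marks a piRNA that shares reads. In the left panel the disl-2(tm5337) points lie below both controls for all 12 piRNAs, and in the right panel they lie above the disl-2 control for all 12.

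Falls were more frequent in the smaller piRNA cluster of chromosome IV. Cluster a had 803 piRNAs tested of 2691. Its rises numbered 47 and its falls 246, and its median changed by -0.43 on the log2 scale. Cluster b had 4484 tested of 10981, of which 597 rose and 774 fell, and its median was -0.08. After rescaling, the medians were -0.26 and 0.09, and 95 rose and 231 fell in cluster a. Of 77 tested piRNAs on the rest of chromosome IV, 24 rose and 6 fell (median 0.38). These numbers are read against 12.5% rises and 19.1% falls over all piRNAs, since no test of the lists was made.

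The shift of cluster a ran through the whole cluster. In windows of 50 neighbouring piRNAs, the median lay below 0 in 16 of 16 windows of cluster a, from -0.71 to -0.12. It lay below 0 in 55 of 89 windows of cluster b, from -0.42 to 0.25. The disl-2(how27) pair also had its lower median in cluster a, at -1.33 against -0.85 in cluster b, where 677 of 803 and 2826 of 4484 fell. Between the controls the 2 clusters hardly differed, with medians of 0.15 in cluster a and 0.19 in cluster b.

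**Figure D4:**
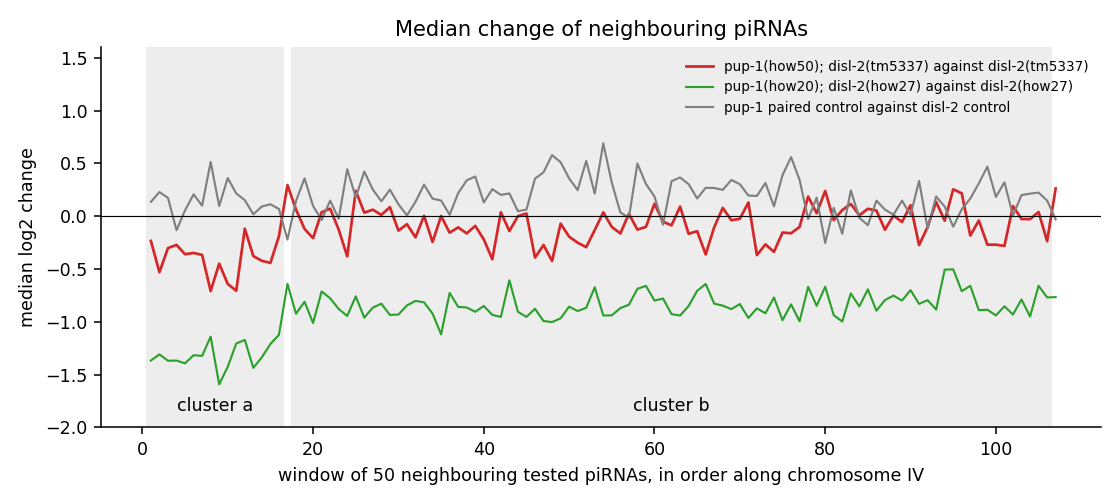
Median log2 change (vertical axis) of windows of 50 neighbouring tested piRNAs in their order along chromosome IV (horizontal axis), for the disl-2(tm5337) pair (red), the disl-2(how27) pair (green) and the 2 controls (grey). The red line lies below 0 in all 16 windows of cluster a, and the green line lies lower there than in cluster b.

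Outside chromosome IV only 5 of 447 listed piRNAs were abundant enough to test. Of these, 4 rose and 0 fell. 21ur-13306, on chromosome V, went from 1.67 and 1.70 RPM to 6.92 and 4.84 RPM (log2 1.53 ± 0.29, limma adjusted p = 2.5e-04), with means of 2.10 and 1.49 RPM in the disl-2 and pup-1 paired controls. 21ur-10581 on chromosome III rose from 0.666 to 1.85 RPM, 21ur-11059 on chromosome V from 0.515 to 1.25 RPM, and 21ur-9589 on chromosome I, which shares reads, from 0.454 to 1.82 RPM. 21ur-15401 on chromosome II did not pass the test, at 1.47 and 2.02 RPM. The 5 stand for few of the 447.

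The authors' germline classes split the direction of change. Of 1804 tested Spermatogenic piRNAs, 312 rose (17.3%) and 174 fell (9.65%), with a median of 0.08. Of 1027 Oogenic piRNAs, 86 rose (8.37%) and 279 fell (27.2%), and their median was -0.30. The 2538 without a class lay nearer the Oogenic ones, with 274 rises, 573 falls and a median of -0.20. Rescaling moved the medians to 0.25, -0.13 and -0.03 in the same order.

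The classes also separated the 2 controls, in the opposite direction. In the pup-1 paired control, 400 Oogenic piRNAs were higher and 16 lower than in the disl-2 control, with a median of 0.55. For Spermatogenic piRNAs 156 were higher and 353 lower, with a median of -0.20. In the disl-2(how27) pair, which shares no library with this one, both classes fell, with medians of -0.99 for Oogenic and -0.74 for Spermatogenic piRNAs. After rescaling, the classes split there in the same direction as in the disl-2(tm5337) pair. The rescaled Oogenic median was -0.09 (106 rose, 167 fell) and the Spermatogenic median 0.16 (392 rose, 110 fell). The part that the stage or germ cell content of the animals has in the class values was not tested.

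Abundant piRNAs rose more often than scarce ones. In quartiles ranked by level in the 4 control libraries, rises numbered 84, 121, 187 and 280 from the lowest to the highest quartile. Falls numbered 300, 276, 259 and 191 in the same order, and the medians ran from -0.28 in the lowest to 0.13 in the highest quartile. In the groups' own libraries, 130 and 98 piRNAs reached 100 RPM in the double mutant, against 80 and 72 in disl-2(tm5337). At the low end, 4843 and 4305 reached 1 RPM in the double mutant, against 5696 and 4827 in disl-2(tm5337), so the groups overlapped in that count but not at 100 RPM. Position inside or outside a coding gene made little difference, with 221 rises and 391 falls among 1888 piRNAs inside and 451 rises and 635 falls among 3481 outside.

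**Figure D5:**
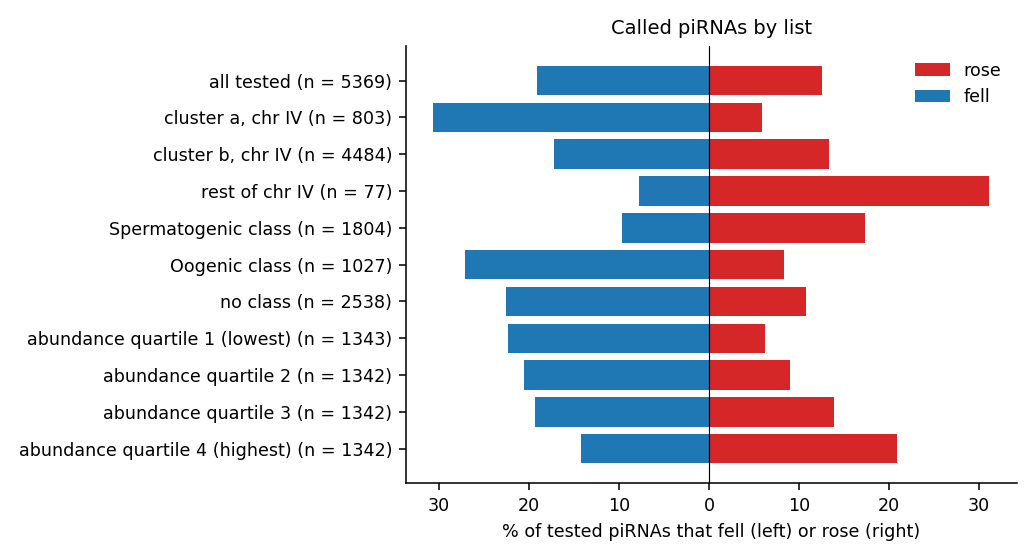
Percentage of tested piRNAs that rose (red, right) or fell (blue, left) in pup-1(how50); disl-2(tm5337) against disl-2(tm5337), by position, authors' class and abundance quartile in the controls. Falls exceed rises in cluster a and the Oogenic class, and rises exceed falls in the Spermatogenic class and the highest quartile.

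Of the 10 most abundant piRNAs of disl-2(tm5337), 3 fell and 0 rose, a called share close to the 31.6% over all piRNAs. The first, 21ur-3730, stood at 656 and 817 RPM in disl-2(tm5337) and at 1014 and 788 RPM in the double mutant (log2 0.29 ± 0.23, limma adjusted p = 0.352). The groups overlapped, as they did for 21ur-2446, at 500 and 416 RPM against 697 and 499 RPM. 21ur-4572 fell from 526 and 443 RPM to 235 and 158 RPM (log2 -1.32 ± 0.24, limma adjusted p = 0.00012), while the disl-2 control held 314 and 241 RPM. 21ur-739, an Oogenic piRNA that shares reads, fell from 465 and 302 RPM to 197 and 175 RPM (log2 -1.01 ± 0.23, limma adjusted p = 0.0012). Its call was lost without disl-2(tm5337) replicate 1, with a limma adjusted p of 0.080.

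21ur-917, also Oogenic, fell from 386 and 342 RPM to 269 and 186 RPM (log2 -0.70 ± 0.22, limma adjusted p = 0.017). That call was lost without disl-2(tm5337) replicate 1 (limma adjusted p = 0.144), without the double mutant's replicate 2 (0.240) and without a filter (0.058). The other 5 had log2 changes between -0.14 and 0.13 and were not called. These piRNAs were picked for their level in disl-2(tm5337), which favours lower values in the other group. 21ur-1, a widely probed piRNA, stood at 8.11 and 7.91 RPM against 5.68 and 5.16 RPM (log2 -0.52 ± 0.27, limma adjusted p = 0.145), without overlap but short of the threshold.

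One piRNA was present in disl-2(tm5337) and listed at 0 in the double mutant. 21ur-1627, chosen after its values were seen and encoded in cluster b within Y43D4A.2, had 245 and 235 reads in disl-2(tm5337), or 7.42 and 7.12 RPM. It had 0 reads in both pup-1(how50); disl-2(tm5337) libraries, which is at least 50.8-fold lower against the mean of the floors of 3 reads per library, 0.143 RPM. Both controls and pup-1(how20); disl-2(how27) were also at 0 reads, and disl-2(how27) had 0 and 3. Outside the comparison it was present in pup-1(tm1021), with 340 and 245 reads, in henn-1, with 497 and 793, in henn-1; disl-2(how18), with 297 and 286, and in parn-1, with 21 and 25. parn-1; disl-2(tm5337), which carries the same disl-2 allele, had 0 reads in both libraries. Its presence thus followed neither the disl-2(tm5337) allele nor the loss of pup-1 across the groups. Whether the strain background or the identity of a library has a part in this was not tested.

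A further 6 piRNAs with at least 1 RPM in both disl-2(tm5337) libraries had 3 reads or fewer in each double-mutant library. No more than 2 reads were counted for any of them, and 0 piRNAs had the opposite pattern, among 14581 considered. The limit of 3 reads was 0.0908 and 0.0909 RPM in disl-2(tm5337), and 0.128 and 0.158 RPM in the less deeply sequenced double mutant. It was therefore easier to meet in the double mutant, and the directions are not compared on equal terms. The highest of the 6 was 21ur-8539, an Oogenic piRNA of clone T13A10, at 2.27 and 1.30 RPM against 2 and 1 reads.

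Setting disl-2(tm5337) against the disl-2 control, and the double mutant against the pup-1 paired control assumed to be its own, gave more falls. In this control-adjusted comparison 47.3% of piRNAs were called, 851 rises (15.9%) and 1690 falls (31.5%), and the median was -0.27. After rescaling, 1723 rose and 1329 fell. Oogenic piRNAs fell in 474 and rose in 66 cases, with a median of -0.83, and Spermatogenic piRNAs rose in 499 and fell in 258, with a median of 0.30. The control-adjusted values include the controls' own differences by construction, and the libraries of the double mutant resembled the disl-2 control more than the pup-1 paired control.

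The largest control-adjusted rises were piRNAs of the direct comparison. 21ur-4502, which shares reads, stood at 7.54 and 6.06 RPM in disl-2(tm5337) and 75.4 and 50.0 RPM in the double mutant, with 68.6 and 59.3 RPM in the disl-2 control and 36.6 and 43.5 RPM in the pup-1 paired control. Its adjusted change was 3.76 ± 0.40 on the log2 scale (limma adjusted p = 6.4e-08). The largest fall was 21ur-3664, from 22.9 and 12.5 RPM in disl-2(tm5337) to 4.91 and 2.79 RPM in the double mutant. Its controls stood far apart, at 5.62 and 3.12 RPM for disl-2 and 42.1 and 34.3 RPM for pup-1, and its adjusted change of -5.07 ± 0.48 joins a direct change of -2.04 and a difference of 3.03 between the controls. For 21ur-4375, which went from 16.8 and 24.2 RPM to 5.85 and 3.11 RPM, the adjusted change was -4.90 ± 0.49, from -2.11 and 2.79.

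The difference between pup-1(how50) in disl-2(tm5337) animals and pup-1(tm1021) in animals with DISL-2 was also tested. pup-1(tm1021) differed from its paired control in 58.9% of piRNAs, with 248 rises (4.62%) and 2914 falls (54.3%) and a median of -0.77. The difference between the control-adjusted effect without DISL-2 and the effect with DISL-2 was fitted as 1 contrast. The pup-1 paired control cancels out of this contrast, which sets the double mutant against pup-1(tm1021) and disl-2(tm5337) against the disl-2 control. It takes the double mutant and pup-1(tm1021) as parts of 1 sub-experiment, which is also an assumption. It passed for 48.6% of piRNAs, with 1841 higher (34.3%), 767 lower (14.3%) and a median of 0.37. After rescaling, 1639 were higher and 1243 lower. The highest quartile by abundance held 753 of the higher and 105 of the lower piRNAs, and the lowest quartile 205 and 258. The disl-2 control libraries enter both the ranking and, with a plus sign, the contrast, so part of this gradient is built in. The quartile counts are therefore a description only. The test sets pup-1(how50) beside pup-1(tm1021), so the allele and the presence of DISL-2 cannot be told apart.

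The named piRNAs of this contrast include some that were much lower in pup-1(tm1021) and in disl-2(tm5337) than in the animals with both mutations. 21ur-4151, a Spermatogenic piRNA within Y43D4A.2 that shares no reads, held 33.6 and 24.0 RPM in the pup-1 paired control and 3.15 and 3.12 RPM in pup-1(tm1021). It held 39.0 and 38.1 RPM in the disl-2 control and 3.84 and 1.76 RPM in disl-2(tm5337). In the double mutant it stood at 22.6 and 14.7 RPM, which was still below the disl-2 control (log2 -1.06, limma adjusted p = 0.018). The log2 difference of the contrast was 6.01 ± 0.44 (limma adjusted p = 1.0e-11). 21ur-6591, a Spermatogenic piRNA of cluster a, was low in the same groups, with pup-1(tm1021) at 1.93 and 0.966 RPM, disl-2(tm5337) at 1.82 and 1.55 RPM and the double mutant at 11.6 and 6.16 RPM (log2 difference 5.72 ± 0.42, limma adjusted p = 1.0e-11). Its controls held 15.1 to 26.0 RPM, and the double mutant fell below the disl-2 control (log2 -1.43, limma adjusted p = 0.0017) and the pup-1 paired control (log2 -0.82, limma adjusted p = 0.022).

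The opposite pattern was seen for 21ur-2194, which was highest in disl-2(tm5337), at 24.8 and 25.0 RPM, and in pup-1(tm1021), at 16.9 and 14.1 RPM. Its log2 difference was -3.79 ± 0.50 (limma adjusted p = 5.9e-07). 21ur-3471, also Oogenic, held 23.6 and 20.3 RPM in disl-2(tm5337), 4.83 and 6.05 RPM in the double mutant and 15.7 and 18.0 RPM in pup-1(tm1021), with a log2 difference of -3.78 ± 0.45. For both, the 2 controls and the double mutant lay below both single mutants.

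The second pair of the study, pup-1(how20); disl-2(how27) against disl-2(how27), shares no library with the first. It asks the same question with other alleles of both disl-2 and pup-1. There 67.8% were called, of which 104 rose (1.94%) and 3538 fell (65.9%), and the median was -0.90. The difference between the pairs, tested directly, passed for 38.9%. The disl-2 allele and the pup-1 allele cannot be told apart in it. The change was higher in the disl-2(tm5337) pair for 2008 piRNAs (37.4%) and lower for 79 (1.47%), with a median difference of 0.75. Over all tested piRNAs, the median level was 3.28 RPM in pup-1(how50); disl-2(tm5337) and 3.20 RPM in pup-1(how20); disl-2(how27). It was 3.79 RPM in disl-2(tm5337) and 6.29 RPM in disl-2(how27). The double mutants thus lay close to each other and the single mutants apart, for reasons that were not tested. After rescaling, which removes a shift of 0.73, 683 were higher and 567 lower.

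Some calls were shared between the pairs. Of the 1026 falls of the disl-2(tm5337) pair, 800 also fell in the disl-2(how27) pair, which is 78.0% of the first list and 22.6% of the second, where 65.9% of all piRNAs fell. Of the 672 rises, 52 also rose there, 7.74% of the first list and 50.0% of the second, where 1.94% of all piRNAs rose. A further 294 of the 672 rises (43.8%) were falls in the disl-2(how27) pair, below the 65.9% of all piRNAs. Of the 1026 falls, 6 (0.58%) were rises there, against 1.94% of all piRNAs.

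21ur-1120 had the largest difference between the pairs, 4.45 ± 0.42 on the log2 scale (limma adjusted p = 1.3e-08). It went from 2.36 and 1.97 RPM to 25.2 and 18.6 RPM in the disl-2(tm5337) pair, and from 35.3 and 36.9 RPM to 9.16 and 19.6 RPM in the disl-2(how27) pair. The 2 double mutants overlapped for this piRNA, and the single mutants did not. 21ur-326, an Oogenic piRNA within atln-2, went from 1.70 and 1.52 RPM to 10.7 and 7.05 RPM in the first pair and from 25.9 and 23.0 RPM to 2.86 and 8.58 RPM in the second (difference 4.30 ± 0.48). In the other direction, 21ur-5230, a Spermatogenic piRNA of cluster a, went from 59.1 and 50.4 RPM to 12.5 and 14.7 RPM in the first pair. It stood at 20.3 and 19.7 RPM against 18.5 and 21.3 RPM in the second pair, where it did not change by the test, and the difference was -1.96 ± 0.39 (limma adjusted p = 3.4e-04).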

How the data were processed

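Small RNAs were treated with the phosphatase PIR-1 before adapter ligation, per the labels' protocols, and Trim Galore and Bowtie are named in the submitters' processing notes. The deposited values are RPM, which the authors scaled to each library's depth per the labels. No genome build is given in the sources used here. The table of 42 libraries held 14681 entries for 14680 piRNAs, 1 listed more than once. All piRNA identifiers matched the WBcel235 gene table, used for names and neighbours only. Depth was recovered as the value of 1 read, and 86.5% to 88.0% of values per library were whole reads within 0.01 read. Reads divided between loci touched 26.3% of tested piRNAs, marked as sharing reads, so no count model was used.

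The tool was limma 3.58.1 (R 4.3.3). One model with a trended prior covered the 14 libraries of 7 groups and the 5369 piRNAs averaging 1 RPM or more, on the log2(RPM + 0.5) scale, with Benjamini-Hochberg adjustment at 0.05. The scale understates the change of low piRNAs. There were 7 residual degrees of freedom, against a median prior of 23.5, so small p-values rest on pooling over piRNAs. Values were not rescaled in the main fit. Labels do not say that replicates were separate cultures, so p-values reflect only library-to-library spread, possibly technical. Totals were compared with an exact permutation test.

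Named piRNAs were the 12 largest rises and 12 largest falls in the direct comparison (called, 5 RPM or more on average, groups not overlapping), 5 each way for the other comparisons, the 10 most abundant in disl-2(tm5337), and 21ur-1. Not all of them appear in the text. The comparison, the lists and the rule were chosen with earlier results of these data known. On simulated data for the direct comparison (5369 piRNAs, 200 changed), the fit found 57% of the log2 changes of size 1 and 100% of those of size 2, and called 7 unchanged piRNAs. The simulated noise was independent between piRNAs and held no deviation shared by a whole library. The 7 therefore do not measure false calls in the real libraries. Of the series' other samples, the 20 time-course libraries entered no fit, the other steady-state groups entered only an alternative fit and the reads of 21ur-1627, and 10 samples outside the table were not analysed here.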

Additional observations from a re-analysis of the deposited data

Results flagged for a closer look

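The control-adjusted change with pup-1(how50) in disl-2(tm5337) animals differed from the change with pup-1(tm1021) in animals with DISL-2, by a limma test of the difference, in 1841 piRNAs that were higher and 767 that were lower. The pup-1 paired control cancels out of this difference. The pup-1 allele and the presence of DISL-2 cannot be told apart in it. The named ones that were higher, as log2 differences, were 21ur-1956 at 7.80, 21ur-5876 at 6.03, 21ur-4151 at 6.01, 21ur-4502 at 5.92 and 21ur-6591 at 5.72. Those that were lower were 21ur-2194 at -3.79, 21ur-3471 at -3.78, 21ur-2123 at -3.45, 21ur-1438 at -3.37 and 21ur-4894 at -3.35. 21ur-1956, 21ur-5876, 21ur-4502 and 21ur-2123 share reads.

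The change also differed between the disl-2(tm5337) and disl-2(how27) pairs, by a limma test of the difference, in 2008 piRNAs that were higher and 79 that were lower in the disl-2(tm5337) pair. The pairs also differ in the pup-1 allele, which cannot be told apart from the disl-2 allele in it. The named ones that were higher were 21ur-1120 at 4.45, 21ur-8605 at 4.45, 21ur-3676 at 4.36, 21ur-326 at 4.30 and 21ur-5876 at 4.20. Those that were lower were 21ur-9190 at -3.25, 21ur-375 at -2.07, 21ur-4894 at -1.995, 21ur-5230 at -1.96 and 21ur-3535, which shares reads, at -1.94.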

How the results depend on the processing

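Requiring a mean of at least 5 RPM left 2490 piRNAs to test in place of 5369. It gave 395 falls in the direct comparison, 609 control-adjusted falls and 295 lower piRNAs in the contrast of pup-1 effects. Between the pairs it gave 1290 higher and 50 lower, and between the controls 549 higher. With no filter 14581 were tested, where control-adjusted falls numbered 2825 and lower piRNAs between the pairs 121. Counts over different numbers tested cannot be compared directly. Rescaling to equal medians gave 1181 direct rises, 1723 control-adjusted rises, 1243 lower in the contrast of pup-1 effects, 683 higher and 567 lower between the pairs, and 1329 lower between the controls. A fit of the contrast's libraries alone gave 786 lower between the controls, of 5614 tested. The median piRNA's level, in place of the total, gave a log2 ratio of -0.20. The causes were not tested.

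Leaving out 1 library each gave 356 to 651 direct rises and 362 to 1194 falls, median log2 changes of -0.31 to 0.09, and total log2 ratios of -0.04 to 0.27. For the other comparisons the ranges were 461 to 912 lower in the contrast of pup-1 effects (461 without disl-2(tm5337) replicate 1), 1240 to 2349 higher and 47 to 169 lower between the pairs, and 800 to 964 higher and 160 to 320 lower between the controls. Between the pairs, higher piRNAs were 1240 without disl-2(how27) replicate 1 or pup-1(how50); disl-2(tm5337) replicate 1. A lone library is assumed to vary like the other groups.

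With replicate number as a block, a replicate block that pairs samples by number, 781 piRNAs rose and 1144 fell in the direct comparison, 668 and 1021 of them shared with the fit without it. Across piRNAs, the deviations of same-numbered libraries of the 2 groups were not correlated (correlation of deviations -0.09). That correlation leaves out a shift shared by a whole library. Replicate 1 had the higher total in both groups, at 68032 over 56978 RPM and 75567 over 60589 RPM. Whether the numbers pair the libraries is therefore not settled. Among the named piRNAs, 471 of 476 direct values and all values of the other comparisons (175, 176 and 177) kept their direction and side of the threshold, the exceptions being 21ur-2400, 21ur-739 and 21ur-917. Depth limits calls for piRNAs near 1 RPM, where 3 reads are up to 0.158 RPM.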
